A study of Mus musculus with 12 samples.

Results

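The interferon-induced transmembrane (Ifitm) genes Ifitm1, Ifitm2, Ifitm3 and Ifitm6 were described in the transcriptome of bone marrow-derived macrophages (BMDMs). They were taken by name, 4 of the 23997 genes in each library, and all 4 passed the filter on low values that left 10581 genes for testing. Ifitm5, Ifitm7 and Ifitm10, the 3 other Ifitm genes in the data, were kept apart and are described after the members. RNA-seq covered 12 libraries, 3 in each of 4 groups: untreated WT, untreated Pim1-/-, WT after LPS and Pim1-/- after LPS. The marrow came from male C57BL/6 mice aged 8 to 10 weeks, and non-adherent cells were grown for 7 days in 10 ng/ml human M-CSF. LPS was given at 100 ng/ml for 4 h, and there was no vehicle arm at a matched time. The Pim1-/- mice were made by CRISPR-Cas9 and carry a deletion across exons I to V of Pim1, the gene of a serine/threonine kinase, in every cell, so a difference between genotypes holds whatever differed during culture as well. Whether the 3 libraries of a group came from separate mice or from separate wells is not given in the sources used here, so the p-values measure the spread between these libraries, which may be technical.

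IFITM proteins are small membrane proteins with a CD225 domain that hinder the fusion of enveloped viruses with host membranes. IFITM3 sits mainly in endosomes and is best known for restricting influenza viruses, while IFITM1 is found more at the cell surface. In macrophages LPS acts through TLR4 and IRF3 to induce IFN-β, and IFN-β acts through its receptor and the receptor's kinases on genes with an interferon-stimulated response element (ISRE), among them Ifitm genes. The GAS motif is another short element of interferon-responsive genes.

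The 4 genes lie within 63.1 kb of chromosome 7 (GRCm38, GENCODE M21), at chr7:140954837-140955987 for Ifitm2, chr7:140967221-140969825 for Ifitm1, chr7:141009586-141010770 for Ifitm3 and chr7:141015699-141017924 for Ifitm6. Ifitm1 is on the plus strand and the others are on the minus strand. Their coding sequences are alike. Over the aligned bases, identity was 82.1% between Ifitm1 and Ifitm2, 82.1% between Ifitm1 and Ifitm3 and 80.9% between Ifitm2 and Ifitm3, while Ifitm6 shared 63.2% to 69.0% with the other members. Such likeness bears on how reads are assigned. Of all stretches of 50 bases in the annotated transcripts, 48.5% of those of Ifitm2 also occurred in another gene, and 3.30% occurred in another member. For Ifitm3 these shares were 10.0% and 5.56%, for Ifitm1 5.02% and 1.42%, and Ifitm6 had no shared stretch. How reads with several matches were counted is not given, so the level of Ifitm2 is the least certain of the 4.

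The stretches before 1 start of each gene are shown because the members share a locus and a signal but differ in their motif matches. All 4 matched the RefSeq promoter table (GRCm38.p6), which holds 250 bases before to 50 bases after 1 start of each gene. Both strands were searched for the ISRE core, spelled as GAAA and GAAA with any 2 bases between them, and for the GAS motif TTCNNNGAA. Among 32851 promoters of the same 300 bases, 3.44% held the ISRE core and 8.30% the GAS motif. The lines below give, 5′ to 3′ on the gene's strand, the 120 bases before the first annotated exon base near that start, with motif matches in capitals. For Ifitm1 and Ifitm6 these bases lie inside the GENCODE span of the gene, downstream of its outermost start. Those of Ifitm2 lie inside its longer RefSeq span, chr7:140954837-140959686, again downstream of the outermost start.
Ifitm1, chr7:140967908-140968027, plus strand: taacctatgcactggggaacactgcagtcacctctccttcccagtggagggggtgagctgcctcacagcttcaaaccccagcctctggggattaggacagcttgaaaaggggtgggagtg
Ifitm2, chr7:140955988-140956107, minus strand: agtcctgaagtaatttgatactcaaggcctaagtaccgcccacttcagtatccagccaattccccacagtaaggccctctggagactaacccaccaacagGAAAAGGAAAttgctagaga
Ifitm3, chr7:141010771-141010890, minus strand: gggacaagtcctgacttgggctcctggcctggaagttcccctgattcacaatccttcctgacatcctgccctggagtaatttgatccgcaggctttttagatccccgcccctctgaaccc
Ifitm6, chr7:141016909-141017028, minus strand: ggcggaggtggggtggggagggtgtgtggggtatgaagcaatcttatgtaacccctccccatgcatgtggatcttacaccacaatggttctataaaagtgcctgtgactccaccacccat

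Ifitm2 held 1 ISRE core, 46 bases before its RefSeq start. Ifitm3 held 2 ISRE cores, at bases 3 and 20 counted from its RefSeq start, and a GAS match at base 14 that overlaps the second core. These lie in the annotated first exon, at chr7:141010714-141010743 on the minus strand, and are shown with the matches in capitals.
Ifitm3, first exon: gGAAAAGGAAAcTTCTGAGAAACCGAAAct
Ifitm6 held no ISRE core and 1 GAS match, which is shown within chr7:141016883-141016912 on the minus strand.
Ifitm6, around the start: ccatatgaacTTCCTTGAAacaagagcttc
Ifitm1 held neither motif in the 300 bases searched, which says only that these letters are not in this window. Ifitm1 and Ifitm6 have 3 annotated transcripts each, and the RefSeq span of Ifitm2 reaches farther upstream. Starts other than the tabulated one were not searched.

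The deletion was checked first. Pim1 stood at 22.9 ± 1.80 FPKM (mean ± SD, n = 3) in untreated WT and 8.73 ± 0.752 in untreated Pim1-/- BMDMs, and at 645 ± 17.8 and 219 ± 15.6 after LPS. FPKM counts fragments per kilobase of transcript, on a scale set for each library. Each Pim1-/- value lay under each WT value. The level left was 38.1% of WT untreated and 33.9% after LPS, and the value covers the whole gene, not the deleted exons alone. Depth was estimated from the steps of the low values at 18400000 to 24900000 fragments per library with median transcript lengths and 36300000 to 47400000 with the longest ones. Replicates differed little, with a median coefficient of variation of 3.03% to 5.12% per group among genes of at least 10 FPKM.

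Within the family, Ifitm3 and Ifitm2 were abundant and Ifitm6 and Ifitm1 were scarce. FPKM is a level per length, so members can be ranked with it. In untreated WT cells Ifitm3 stood at 582 ± 4.46 FPKM, Ifitm2 at 517 ± 34.5, Ifitm6 at 23.8 ± 1.34 and Ifitm1 at 2.30 ± 0.147 (n = 3 for each). This order held in every library of all 4 groups. The ranges of Ifitm3 and Ifitm2 were close in untreated cells, with 1.04 to 1.19 times as much Ifitm3 as Ifitm2 in the WT libraries. After LPS, Ifitm3 ranked 25 and Ifitm2 ranked 46 by mean level among the 10581 genes in WT cells, while Ifitm6 ranked 1286 and Ifitm1 ranked 2850. In Pim1-/- cells after LPS the ranks were 49 for Ifitm3, 150 for Ifitm2, 3138 for Ifitm6 and 7118 for Ifitm1.

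**Figure D1:**
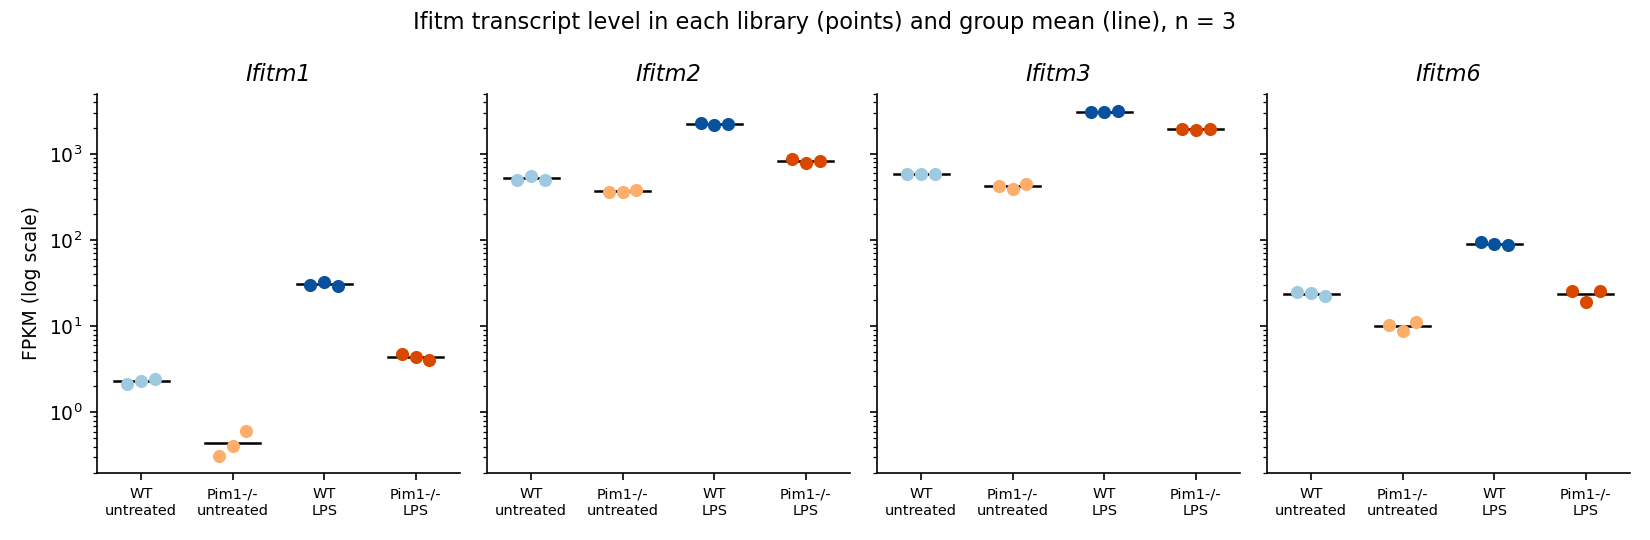
Transcript level of Ifitm1, Ifitm2, Ifitm3 and Ifitm6 in FPKM on a log axis, with a point for each of the 12 libraries and a line for each group mean (n = 3). For every member the 3 Pim1-/- points lie under the 3 WT points of the same treatment, from 0.316 FPKM for Ifitm1 in an untreated Pim1-/- library to 3155 FPKM for Ifitm3 in a WT library after LPS, on the values as deposited.

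The first comparison asked how far each member depended on Pim1 after LPS, when the family was high. Ifitm1 was at 30.1, 32.4 and 29.5 FPKM in the WT libraries and at 4.77, 4.38 and 4.03 FPKM in the Pim1-/- libraries. The groups did not overlap, and the Pim1-/- mean was 14.3% ± 0.808 (SE) of the WT mean. Ifitm6 was at 95.4, 89.0 and 87.9 FPKM in WT and at 25.5, 19.2 and 25.6 FPKM in Pim1-/-. Again no Pim1-/- value reached a WT value, and 25.8% ± 2.42 of the WT mean was left. The 2 scarce members thus kept the smallest share of their WT level.

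Ifitm2 was at 2296, 2161 and 2228 FPKM in WT and at 859, 790 and 827 FPKM in Pim1-/- after LPS, which left 37.0% ± 1.10 of the WT mean. Ifitm3 was at 3016, 3071 and 3155 FPKM in WT and at 1940, 1895 and 1928 FPKM in Pim1-/-, which left 62.3% ± 0.927. Ifitm3 therefore kept the largest share, and its groups did not overlap either. In all, 4 of 4 members had the 3 Pim1-/- values under the 3 WT values, as had 41.8% of all genes tested. In limma on log2(FPKM + 1) the differences were −2.55 (SE 0.07) for Ifitm1, −1.92 (SE 0.09) for Ifitm6, −1.43 (SE 0.05) for Ifitm2 and −0.68 (SE 0.05) for Ifitm3. The limma p-values adjusted by Benjamini-Hochberg over all genes were 1.5e-13, 5.8e-11, 1.6e-12 and 2.5e-09. A gene was called when it changed more than 2-fold with p under 0.05 and an FDR under 0.1, which Ifitm1, Ifitm6 and Ifitm2 met in the lower direction and Ifitm3 did not because of its fold. Of all genes tested, 5.15% were called lower. Only 23 genes had a lower log2 fold change than Ifitm1 and 67 than Ifitm6, against 201 for Ifitm2 and 1265 for Ifitm3.

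For the 2 abundant members the direction was lost when the values were scaled to Actb. Under all other alternatives of the processing Ifitm2 stayed at −1.52 to −1.23 and Ifitm3 at −0.77 to −0.48. The values were used as deposited, and on them Actb, the gene of β-actin and the study's RT-qPCR reference, was itself at 36.9% ± 2.04 of WT after LPS. Scaled to Actb, the median of all genes moved to 0.98 on the log2 scale and the differences became −1.15 for Ifitm1, −0.50 for Ifitm6, 0.01 for Ifitm2 and 0.76 for Ifitm3, so that of Ifitm3 turned upward. Relative to that median, Ifitm6 was at −1.48, Ifitm2 at −0.97 and Ifitm3 at −0.22.

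The same comparison in untreated cells gave smaller differences. Ifitm1 was at 2.14, 2.31 and 2.43 FPKM in WT and at 0.316, 0.411 and 0.604 FPKM in Pim1-/- libraries. No value overlapped, and 19.3% ± 3.76 of the WT mean was left. The Pim1-/- values rest on about 9.87 to 18.2 fragments per library, against 55.2 to 73.7 in WT, so their spread was wide. Ifitm6 was at 24.9, 24.2 and 22.3 FPKM in WT and at 10.3, 8.81 and 11.1 FPKM in Pim1-/-, or 42.4% ± 3.14 of WT.

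Ifitm2 and Ifitm3 were alike in untreated cells. Ifitm2 was at 494, 557 and 499.8 FPKM in WT and at 358, 356 and 381 FPKM in Pim1-/-, which was 70.6% ± 3.13 of the WT mean. Ifitm3 was at 587, 578 and 582 FPKM in WT and at 419, 389 and 446 FPKM in Pim1-/-, which was 71.8% ± 2.83. The 3 Pim1-/- values lay under the 3 WT values for 4 of 4 members and for 44.2% of all genes tested. By limma the log2 differences were −1.19 (SE 0.07, adjusted p 9.7e-10) for Ifitm1, −1.17 (SE 0.09, adjusted p 2.6e-08) for Ifitm6, −0.50 (SE 0.05, adjusted p 3.9e-07) for Ifitm2 and −0.48 (SE 0.05, adjusted p 1.8e-07) for Ifitm3. Ifitm1 and Ifitm6 were called lower, beside 3.37% of all genes tested. The constant of 1 FPKM added before the log understates the change of Ifitm1, whose ratio of means without it was −2.37 on the log2 scale. Scaled to Actb, which was at 77.9% ± 1.63 of WT, all 4 stayed under 0, but Ifitm2 at −0.14 had an adjusted p of 0.0897 and Ifitm3 at −0.12 had one of 0.123 by limma.

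**Figure D2:**
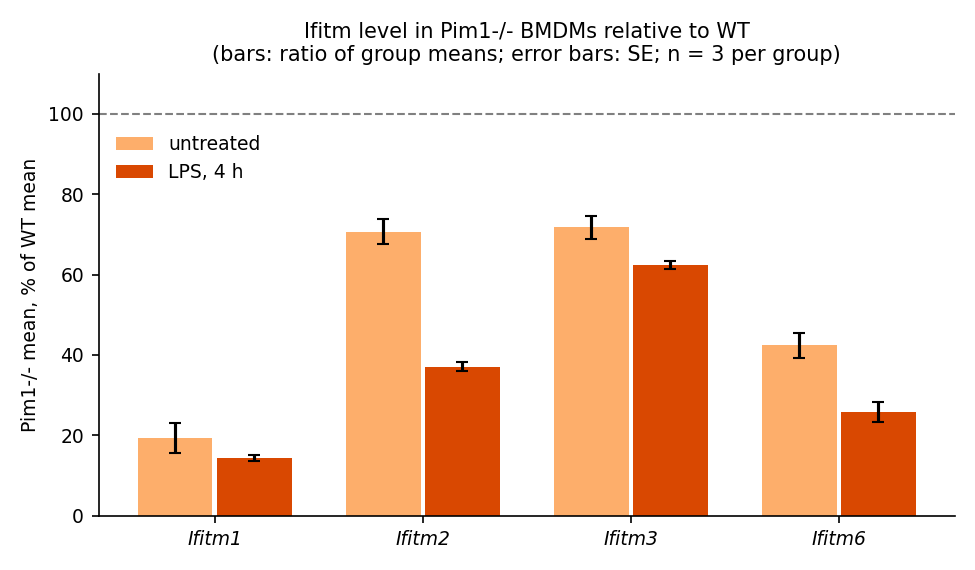
Mean FPKM in Pim1-/- BMDMs as a percent of the WT mean for each member, untreated and after LPS (bars are ratios of group means, error bars are SE, n = 3 per group, the dashed line is WT at 100%). On the values as deposited, Ifitm1 and Ifitm6 are lowest in both treatments at 14.3% to 42.4%, Ifitm2 falls from 70.6% to 37.0% with LPS, and Ifitm3 stays at 62.3% to 71.8%.

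Whether the members differed from each other in their dependence on Pim1 was tested with ratios within a library, which no scaling of the library can change. For each of the 6 pairs, the log2 ratio was compared between genotypes, averaged over both treatments, by an exact two-sided permutation test that exchanged genotypes within treatments. The smallest p that its 400 assignments allow is 0.005. Against Ifitm3, the ratio of Ifitm1 differed by −2.03 on the log2 scale in Pim1-/- relative to WT, and the ratio of Ifitm3 to Ifitm6 was higher by 1.02. Against Ifitm2, the ratio of Ifitm1 differed by −1.65, and the ratio of Ifitm2 to Ifitm6 was higher by 0.64. The ratio of Ifitm1 to Ifitm6 differed by −1.01. These 5 pairs each had an exact permutation p of 0.005, or 0.006 after adjustment over the 6 pairs, and their genotypes did not overlap in either treatment. The 6 pairs share their genes, so these results are not independent of each other. How many pairs of other genes reach this p was not counted, so it does not set the family apart. Of all single genes tested, 41.8% after LPS and 44.2% untreated had every Pim1-/- value under every WT value. The sizes for the scarce Ifitm1 depend on the constant: with 1 FPKM added to both genes the ratio of Ifitm1 differed by −1.29 against Ifitm3, −0.91 against Ifitm2 and −0.33 against Ifitm6, and the last had an adjusted exact permutation p of 0.04.

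Ifitm2 and Ifitm3 formed the exception. Their ratio differed by −0.39 averaged over the treatments, with an exact permutation p of 0.04 before and 0.04 after adjustment. In untreated cells it was 0.842, 0.963 and 0.858 in the WT libraries and 0.855, 0.916 and 0.855 in the Pim1-/- libraries, so the groups overlapped and the difference was −0.02. After LPS it was 0.761, 0.704 and 0.706 in WT and 0.443, 0.417 and 0.429 in Pim1-/-, with no overlap and a difference of −0.75. Within a single treatment an exact permutation of 3 against 3 libraries cannot give p under 0.1, and no other test of these ratios was run. The call for this pair was lost without the WT untreated replicate 2, where the adjusted exact permutation p was 0.075, and it was lost again at 0.09375 when genotypes were exchanged only between libraries of the same replicate number.

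The response to LPS was the next comparison. All 4 members rose in both genotypes on the values as deposited. In WT cells Ifitm1 rose 13.4-fold ± 0.622 (ratio of means ± SE), Ifitm3 5.29-fold ± 0.0732, Ifitm2 4.31-fold ± 0.183 and Ifitm6 3.82-fold ± 0.158. The limma differences were 3.26 (SE 0.07, adjusted p 4.9e-16) for Ifitm1, 2.40 (SE 0.05, adjusted p 6.5e-17) for Ifitm3, 2.11 (SE 0.05, adjusted p 1.3e-15) for Ifitm2 and 1.89 (SE 0.09, adjusted p 1.5e-11) for Ifitm6. All 4 were called higher, as were 20.1% of all genes tested. These responses depend on the scale of the libraries. With equal FPKM sums the median WT response of all genes moved to −0.67. Over the alternatives other than scaling to Actb, the lowest WT responses were 2.564 for Ifitm1, 1.454 for Ifitm3, 1.096 for Ifitm2 and 1.095 for Ifitm6.

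In Pim1-/- cells Ifitm1 rose 9.91-fold ± 1.95, Ifitm3 4.597-fold ± 0.183, Ifitm6 2.32-fold ± 0.260 and Ifitm2 2.26-fold ± 0.0732. The limma differences were 1.90 (SE 0.07, adjusted p 7.6e-13), 2.2001 (SE 0.05, adjusted p 2.8e-16), 1.13 (SE 0.09, adjusted p 1.4e-08) and 1.17 (SE 0.05, adjusted p 3.9e-12), and all 4 were called higher beside 14.6% of all genes. The 2 comparisons with LPS share no library with each other, but each shares its libraries with the genotype comparisons. Actb rose 6.09-fold in WT and 2.88-fold in Pim1-/- cells. Scaled to Actb, the responses of Ifitm2, Ifitm3 and Ifitm6 in WT turned to −0.50, −0.20 and −0.65 and those of Ifitm2 and Ifitm6 in Pim1-/- turned to −0.35 and −0.30, while the median of all genes moved to −2.03 and −1.36. Relative to these medians all 4 members remained higher in both genotypes, by 1.01 (Ifitm2 in Pim1-/-) to 3.00 (Ifitm1 in WT).

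**Figure D3:**
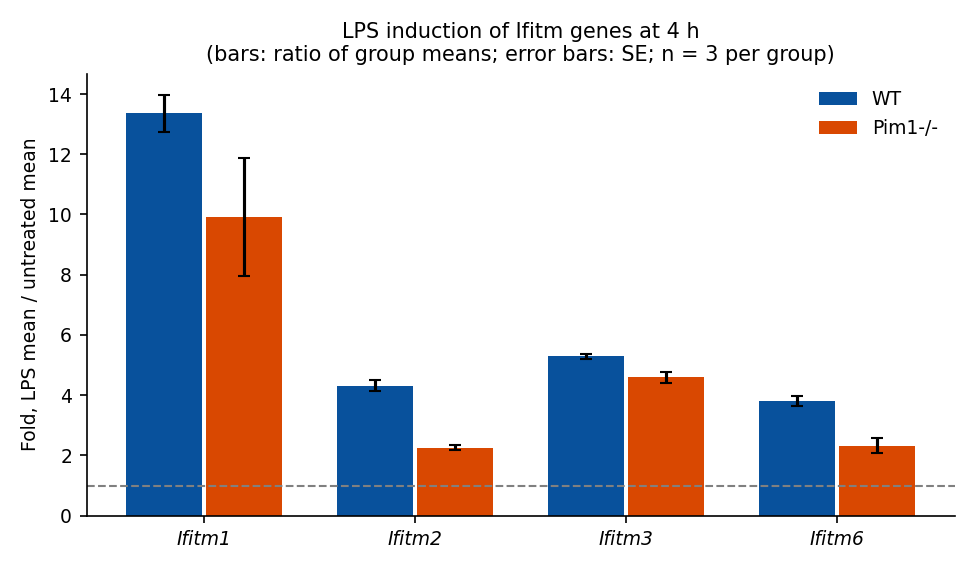
Fold of the mean FPKM after LPS over the untreated mean for each member in WT and Pim1-/- BMDMs (bars are ratios of group means as deposited, error bars are SE, n = 3 per group, the dashed line is no change). Ifitm2 rose 4.31-fold in WT and 2.26-fold in Pim1-/- cells, and Ifitm3 rose 5.29-fold and 4.597-fold.

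The difference in LPS response between genotypes was tested as an interaction in the same limma fit. Relative to WT, the response in Pim1-/- cells differed by −0.93 (SE 0.07, adjusted p 3.5e-08) for Ifitm2, −0.75 (SE 0.13, adjusted p 1.7e-04) for Ifitm6 and −0.20 (SE 0.07, adjusted p 0.0144) for Ifitm3 on the log2(FPKM + 1) scale. For Ifitm1 it was −1.36 (SE 0.10, adjusted p 2.8e-08), and Ifitm1 was the only member called, beside 4.43% of all genes called lower. This value of Ifitm1 depends on the constant added before the log. With 0.1 FPKM in place of 1 it was −0.61 (adjusted p 0.0163 by limma), which is no longer past 2-fold, and the ratios of means without a constant differed as 3.74 in WT and 3.31 in Pim1-/- on the log2 scale. With 0.1 FPKM added Ifitm2 was at −0.93, Ifitm6 at −0.73 and Ifitm3 at −0.20. For Ifitm3 the difference shrank to −0.05 under quantile normalization and under equal FPKM sums and to −2.0e-05 with the reference genes, with adjusted p of 0.498, 0.503 and 0.9998 by limma. For Ifitm6 it shrank to −0.22 under quantile normalization, with an adjusted p of 0.18 by limma. Scaled to Actb, all 4 differences turned to above 0, at 0.20 for Ifitm1, 0.15 for Ifitm2, 0.88 for Ifitm3 and 0.36 for Ifitm6, beside a shift of the median of all genes to 0.74.

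The make-up of the family followed from these differences. The summed level of the 4 members was 1125 ± 30.8 FPKM in untreated WT, 793 ± 42.2 in untreated Pim1-/-, 5431 ± 74.0 in WT after LPS and 2774 ± 60.7 in Pim1-/- after LPS. The total FPKM of a library was 452500 to 489700 in untreated cells and 713300 to 849300 after LPS. With all libraries scaled to the same total, the summed level was 2344.9 ± 41.8 in untreated WT and 1722 ± 113 in untreated Pim1-/-. On that scale it was 6445.8 ± 107 in WT and 3798.5 ± 108 in Pim1-/- after LPS. The rise with LPS was thus smaller in both genotypes than on the values as deposited. Ifitm3 made up 51.8% ± 1.75 of the summed level in untreated WT, 52.6% ± 0.929 in untreated Pim1-/- and 56.7% ± 1.10 in WT after LPS. In Pim1-/- after LPS it made up 69.3% ± 0.691, and no library of the other groups came above 57.4%. Ifitm2 made up 45.9% ± 1.79, 46.0% ± 1.02, 41.0% ± 1.04 and 29.7% ± 0.593 in the same order of groups. Ifitm6 held 0.843% to 2.11% and Ifitm1 0.0555% to 0.565% of the sum. The shares are a description and carry no test of their own.

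**Figure D4:**
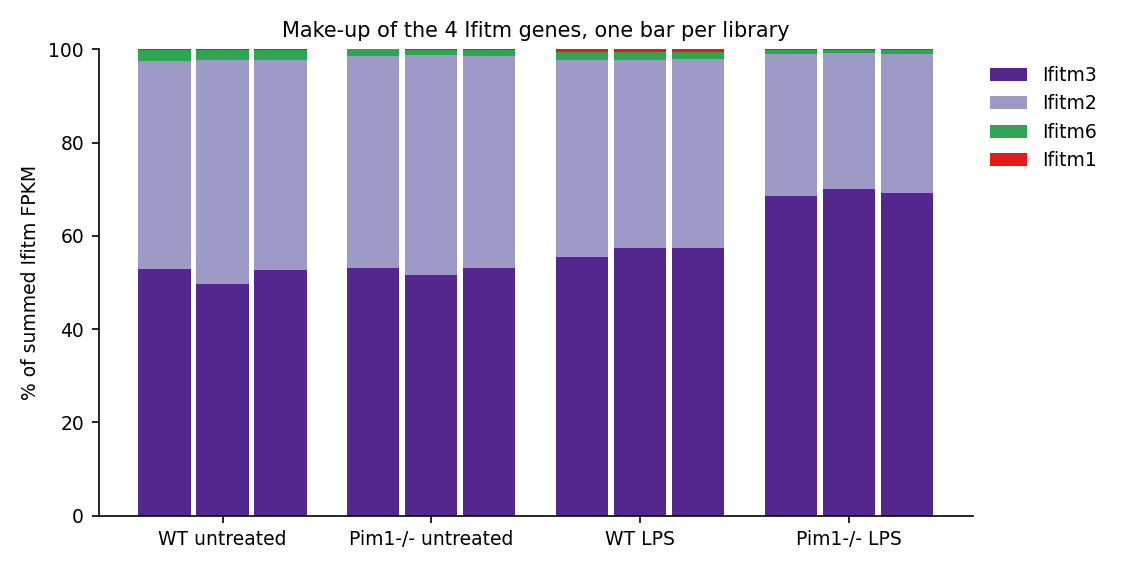
Share of each member in the summed FPKM of Ifitm1, Ifitm2, Ifitm3 and Ifitm6, in percent, with a bar for each of the 12 libraries in 4 groups of 3. Ifitm3 makes up 49.8% to 57.4% in the other 3 groups and 68.6% to 69.9% in the Pim1-/- libraries after LPS.

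The promoter letters can be set beside these values. Ifitm3, with 2 ISRE cores by its start, kept 62.3% of its WT level after LPS, Ifitm2 with 1 core kept 37.0%, and Ifitm6 and Ifitm1 with none kept 25.8% and 14.3%. These are 4 genes, and no test was made. For Ifitm6 and Ifitm1, and by the RefSeq span for Ifitm2, the window searched lies inside the annotated gene. Other starts were not searched, so the count of cores for these genes covers this window alone. Of the 8576 tested genes that matched the promoter table, 352 held an ISRE core. Their median difference between genotypes after LPS was −0.16 against −0.03 for all 8576, and 32 of them (9.09%) were called lower and 7 (1.99%) higher, against 5.00% and 3.603% of all 8576. In untreated cells 32 (9.09%) were called lower and 15 (4.26%) higher, against 3.31% and 4.45% of all, with a median of −0.12. Their median LPS response was 0.55 in WT and 0.41 in Pim1-/-, against −0.01 and −0.02 for all.

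The other genes of the locus were read for comparison. Besides the members, 17 genes are annotated within 100 kb of the cluster in RefSeq (GRCm38.p6), and 7 of them were tested. Ifitm5, known from bone-forming cells, was the only one called between genotypes after LPS, and none of the 7 was called in untreated cells. After LPS the log2 differences of the other 6 were −0.63 for Ric8a (listed as Ric8), a chaperone of G protein subunits, −0.53 for Pgghg (listed as Athl1), −0.11 for Bet1l, a SNARE protein, 0.13 for Sigirr, a negative regulator of Toll-like and IL-1 receptors, 0.14 for Sirt3, a mitochondrial deacetylase, and 0.26 for Psmd13, a proteasome subunit. By limma the adjusted p-values were 1.2e-08, 2.0e-06, 0.0764, 0.117, 0.0232 and 0.000886. Each of these was nearer to 0 than that of Ifitm3, the member that changed least. This did not hold in untreated cells, where Pgghg at −0.62, Psmd13 at 0.60 and Ric8a at −0.58 lay farther from 0 than Ifitm2 and Ifitm3.

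Among the 9 other genes listed with an Ifitm name or a CD225 domain, 2 were tested. Ifitm5 was at 3.22, 2.76 and 2.46 FPKM in WT and at 1.19, 0.764 and 0.680 FPKM in Pim1-/- after LPS, and its group means in untreated cells were 0.403 and 0.130 FPKM. Ifitm7 was listed at 0 in all untreated libraries, at 1.21, 1.92 and 1.62 FPKM in WT after LPS and at 0.0457, 0 and 0.157 FPKM in Pim1-/- after LPS. As for the members, WT after LPS was the highest group. Their log2 differences after LPS were −1.03 and −1.27 and both were called lower by limma, with adjusted p of 7.0e-07 and 2.0e-09. They entered the test because of their WT values after LPS, so these calls are no support for the family. Ifitm10 was at 0.0694 FPKM or less in every library.

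Restriction factors outside the family were read next. Of 18 listed antiviral effectors, all 18 tested, 4 were called lower and none higher after LPS, beside 5.15% of all genes called lower. All 18 had a lower value with an FDR under 0.1, but the share of all genes that did was not counted. The median difference of the 18 was −0.61, against −0.03 for all genes. Those called were Ch25h, the cholesterol 25-hydroxylase, at −1.84 (SE 0.07), Mx1 at −1.70 (SE 0.04) and Mx2 at −1.41 (SE 0.05), 2 dynamin-like GTPases, and Samhd1, a dNTP hydrolase, at −1.28 (SE 0.04). In untreated cells 8 of the 18 were called lower, beside 3.37% of all genes. The 8 were led by Ifit3 at −2.54, Ifit1 at −1.98, Rsad2 (viperin) at −1.68 and Ifit2 at −1.64. The median of the 18 was −0.70, and 17 had a lower value with an FDR under 0.1, again without a count over all genes. Ch25h was the exception at 0.45 (SE 0.07, adjusted p 2.1e-05 by limma), higher in untreated Pim1-/- cells and lower after LPS. For this list the count of calls was larger in untreated cells than after LPS, whereas of the 4 members 2 were called in untreated cells and 3 after LPS, and the lists were not tested against each other.

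Of the 16 listed genes of interferon signalling, 5 were called lower and none higher after LPS, beside 5.15% of all genes called lower. The median of the 16 was −0.53. The 4 with the largest change were Socs1, a feedback inhibitor, at −1.49 (SE 0.07), Jak1 at −1.30 (SE 0.04), the receptor chain Ifnar1 at −1.26 (SE 0.05) and the transcription factor Irf7 at −1.05 (SE 0.08). Ifnb1 went the other way. It was listed at 0 in all untreated libraries, and after LPS its mean in Pim1-/- cells was 183% ± 14.2 (SE) of WT, a log2 difference of 0.80 (SE 0.07, adjusted p 3.9e-08 by limma). In untreated cells 3 were called lower, beside 3.37% of all genes: Irf7 at −1.71, Irf1 at −1.28 and Stat2 at −1.06. Of 13 listed enzymes and partners of IFITM proteins, 12 were tested. After LPS 1 of the 12 was called lower and none higher, beside 5.15% of all genes called lower. It was Fyn, a kinase that phosphorylates IFITM3, at −1.07 (SE 0.05). None was called in untreated cells, and the median of the 12 after LPS was −0.16. The tetraspanin Cd9 was higher at 0.77 (SE 0.04), without passing 2-fold.

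**Figure D5:**
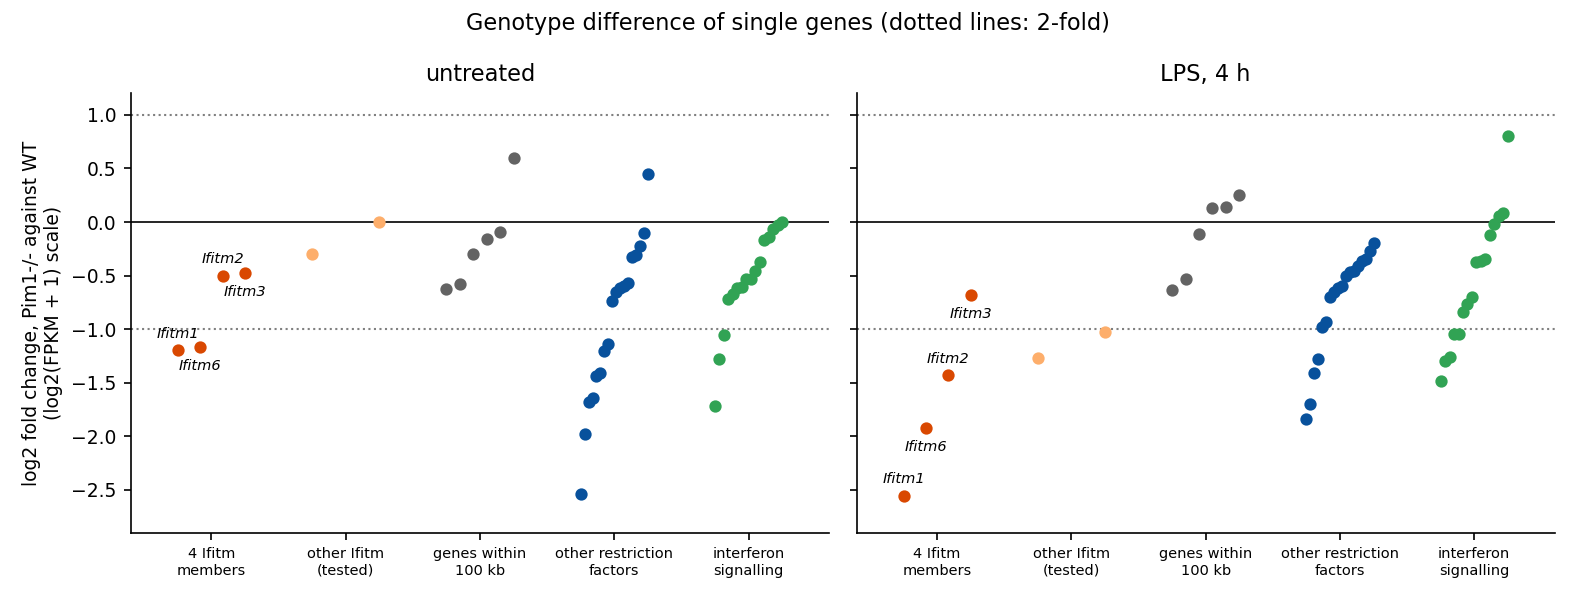
Log2 fold change of single genes in Pim1-/- against WT BMDMs on the log2(FPKM + 1) scale, untreated (left) and after LPS (right), for the 4 members, Ifitm5 and Ifitm7, the 6 other tested genes within 100 kb, 18 other restriction factors and 16 interferon signalling genes (a point per gene, values as deposited, dotted lines at 2-fold). After LPS the members span −2.55 to −0.68, the locus neighbours −0.63 to 0.26 and the restriction factors −1.84 to −0.20.

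Markers of cell types moved with genotype too. In bulk RNA, fewer cells of a type and less RNA per cell cannot be told apart. All 10 macrophage markers were tested and none was at 0 in any group. Their sum was 28244 to 30300 FPKM in untreated WT and 14531 to 15433 in untreated Pim1-/-. After LPS it was 31221 to 31702 and 16054 to 17931, and most of it was Lyz2. Of the 10, 5 were called lower in untreated cells and 4 after LPS, beside 3.37% and 5.15% of all genes. The summed neutrophil markers were at 19.0 to 19.9 and 9.04 to 9.90 FPKM untreated and 52.7 to 56.2 and 12.4 to 14.4 after LPS, with Retnlg at 0 throughout. Most of the WT sum was Csf3r, which was called lower in both, and S100a9 was called lower after LPS at −1.17. Other markers of this list went the opposite way, with S100a8 at 0.95 and Mmp8 at 0.64 in untreated cells and Mmp8 at 0.51 after LPS, each with an FDR under 0.1. The dendritic cell markers, mainly Cd74, summed to 296 to 341 and 68.0 to 82.7 FPKM untreated and to 630 to 665 and 211 to 234 after LPS. The monocyte markers summed to 16.0 to 17.2 and 7.87 to 8.90 FPKM untreated and to 12.0 to 13.1 and 6.67 to 8.37 after LPS. The stromal markers summed to 2.65 to 3.09 and 0.786 to 1.05 FPKM untreated and to 11.01 to 11.32 and 2.89 to 3.64 after LPS. The summed myeloid progenitor markers were at 2.89 to 3.00 and 14.0 to 14.8 FPKM untreated and 1.24 to 1.73 and 6.33 to 7.34 after LPS. Of the 2 that were tested, Cd34 was called higher in both, and Kit was at 0.27 untreated (adjusted p 0.0028 by limma) and −0.09 after LPS (adjusted p 0.274). The lymphocyte, mast cell and erythroid markers did not sum to above 0.208 FPKM in any library. The part of these differences in the Ifitm values was not tested.

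Genes of like pattern were listed for each member as a description, by Pearson's r of log2(FPKM + 1) over the 12 libraries, which lie in 4 groups. For Ifitm1 they were Cnp, Surf4, Stat3, C030046E11Rik and Jak1 (r = 0.9966 to 0.9970), for Ifitm2 Nfil3, Fgl2, Ctnna1, Tmem50b and P2ry2 (r = 0.9969 to 0.9977), for Ifitm3 Mapkapk2, Icosl, Stx6, Myd88 and Mxd1 (r = 0.9992 to 0.9995) and for Ifitm6 Ptpn6, Akt2, Srgap2, Ubtd1 and Psmf1 (r = 0.9938 to 0.9956). No gene stood in more than 1 of these lists. Between members r was highest for Ifitm1 and Ifitm2, at 0.9934, and lowest for Ifitm3 and Ifitm6, at 0.844.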

How the data were processed

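Stranded mRNA libraries of 12 BMDM samples were sequenced by the authors, mapped with TopHat2 2.0.13 and quantified with Cuffdiff 2.2.1 after cutadapt 1.18 and bcl2fastq 2.20.0.422. The deposited values were read as FPKM, 1 column per library, since the column carries no unit. The submitters' processing notes name mm10 and the methods a rat build; of the 23997 gene names 22694 matched GENCODE M21 mouse symbols. For library normalization, annotation and read length, nothing was found in these sources.

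No rescaling was applied. The 10581 genes that reached 1 FPKM in 3 or more libraries were fitted as log2(FPKM + 1) with limma 3.58.1 (R 4.3.3), with 4 group means and a mean-variance trend, over all 12 libraries. Both tests were tested on simulated data. Ratios between members were tested by exact permutation (Python 3.11.15, numpy 2.4.6). Coding sequences were aligned with Biopython 1.88. The genes named are the members, Pim1, at most 4 called genes per list, tested Ifitm genes and neighbours, and 5 genes of like pattern per member. The members and lists were chosen with earlier results of these data known. Marker genes and genes added for scale, such as Actb, Cd9 and Ifnb1, were named after their values were seen.

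Same-numbered libraries deviated together between genotypes in untreated cells (r of 0.326, 0.370 and 0.456 over 3646 genes). They did so between treatments in Pim1-/- cells too (0.426, 0.541 and 0.683). Between genotypes after LPS r was 0.0203, 0.366 and 0.191, and between treatments in WT cells it was −0.103, 0.141 and 0.191. The numbers may pair libraries, but no label says so, and libraries of unlike number were not compared. Alternatives covered the pseudocount, filters, scaling, the trend, the replicate block, the groups fitted and each library left out. Protein sequences were not used here.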

Additional observations from a re-analysis of the deposited data

Results flagged for a closer look

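Each member's LPS response differed between the genotypes by the interaction test in limma. The response in Pim1-/- minus that in WT was −1.36 for Ifitm1, −0.93 for Ifitm2, −0.20 for Ifitm3 and −0.75 for Ifitm6 on the log2(FPKM + 1) scale. Each was lower with an adjusted p under 0.1 by limma, and the share of all genes under this threshold was not counted. Among all genes tested, 1.84% had a lower difference than Ifitm1, 5.3% than Ifitm2, 33.4% than Ifitm3 and 7.91% than Ifitm6. With 0.1 FPKM added in place of 1, the difference of Ifitm1 was −0.61. Under quantile normalization that of Ifitm6 was −0.22 with an adjusted p of 0.18 by limma. That of Ifitm3 did not pass an adjusted p of 0.1 under quantile normalization, with the reference genes or with equal FPKM sums. Scaled to Actb, all 4 turned to above 0. Groups of 3 libraries are too small for a check of single outlying samples.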

How the results depend on the processing

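Leaving out any 1 library changed none of the 240 results per member and comparison, and the alternatives other than scaling to Actb reversed none. Scaling to Actb, which moved the median of all genes, reversed the genotype differences after LPS of Ifitm2 (0.0101) and Ifitm3 (0.76), the LPS responses in WT of Ifitm2 (−0.50), Ifitm3 (−0.20) and Ifitm6 (−0.65), those in Pim1-/- of Ifitm2 (−0.35) and Ifitm6 (−0.30), and the differences in LPS response of Ifitm1 (0.20), Ifitm2 (0.15), Ifitm3 (0.88) and Ifitm6 (0.36). It took under 2-fold Ifitm6 after LPS (−0.50) and untreated (−0.85), the WT response of Ifitm1 (0.97) and the Pim1-/- response of Ifitm3 (0.68), and left 1, 1, 0, 1 and 0 members called in the same direction, for the genotype difference after LPS and untreated, the response in WT and in Pim1-/- and their difference. In the Pim1-/- response, Ifitm2 and Ifitm6 fell under 2-fold with quantile normalization (0.28 and 0.96), with the reference genes (0.79 and 0.77) and with equal FPKM sums (0.51 and 0.51), an alternative chosen after seeing the data, which left 2 members called each time. With a pseudocount of 0.1 the Ifitm1 difference in LPS response (−0.61) was not called, leaving 0. The cause was not tested.

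With the replicate block, no other call changed than that of the ratio of Ifitm2 to Ifitm3, which stayed at −0.39 with an adjusted exact permutation p of 0.09375. With 1 FPKM added, the ratios of Ifitm1 to Ifitm2, Ifitm3 and Ifitm6 shrank to −0.91, −1.29 and −0.33. The ratio of Ifitm2 to Ifitm3 ranged from −0.40 to −0.36 over the left-out libraries. Counts of all genes called moved by over 1.5 times in some settings. Those lower after LPS went from 545 to 33 (Actb) and 331 (equal sums), those lower in untreated cells from 357 to 201 (Actb), 583 (pseudocount of 0.1) and 768 (reference genes), those higher with LPS from 2130 to 411 (Actb), 1405 (reference genes) and 1190 (equal sums) in WT and from 1546 to 620 (Actb) and 967 (equal sums) in Pim1-/-, and those with a lower response from 469 to 218 (Actb). Depth limits Ifitm1 in untreated Pim1-/- cells, where it rests on 9.87 to 18.2 fragments. The unit, the read assignment between like genes and the origin of the replicates are unknown here.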
